A study of Mus musculus with 4 samples.

Results

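The coagulation and complement genes are 38 genes for the proteins that clot blood, hold clotting in check and mark foreign cells for destruction. They were taken by their symbols in the mm9 annotation, and all 38 of the listed symbols were found among 22367 protein-coding genes of chromosomes 1 to 19, X and Y. The rule used symbols alone and no measured value.

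Clotting is a cascade of zymogens in plasma, in which tissue factor or contact with a surface starts a chain of proteases that ends when thrombin turns fibrinogen into fibrin. Complement is a cascade of the same build. C1q on antibody or mannose-binding lectin on sugar opens it, C3 is cleaved at its center, and C5 to C9 form the pore that ends it. The liver is the main source of most of these proteins, and hepatocytes secrete many of them in bulk, whereas C1q comes mostly from macrophages, factor VIII and von Willebrand factor from endothelial cells, and the A chain of factor XIII from cells of the blood lineages.

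The position of these genes relative to the NE was read from DamID, in which a bacterial Dam methylase fused to LaminB1 marks the GATC sites that touch the nuclear lamina. Primary hepatocytes of WT (*Tm7sf2*+/+) and KO (*Tm7sf2*-/-) mice aged 12 to 16 weeks, all C57BL/6, took up lentivirus over 24 h that carried either Dam-LaminB1 or the unfused Dam (Dam only), the control for how accessible the DNA is. *Tm7sf2* encodes NET47, a sterol reductase of the NE and endoplasmic reticulum, and its deletion in the KO is present in every cell of the animal from the germline on. There were 4 libraries, 1 of each construct per genotype, each from the pooled DNA of 4 mice. No replicate library exists, so the values of WT and KO are set side by side with no error and no p-value, and a difference between the genotypes cannot be told apart from a difference between the pools.

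The authors called lamina-associated domains (LADs) from the ratio of the 2 constructs, which gave 8107 LADs in WT and 16076 in KO, and listed the stretches of at least 10 kb found in 1 genotype only as differential regions (DRs), 7787 for WT and 8208 for KO. The lists hold positions and no signal, read number or score, so the depth behind a border is unknown here, and no expression, so neither the loss of *Tm7sf2* nor the hepatocyte identity of the cells could be checked. A gene was called PI (periphery in WT, interior in KO) when at least 1 base of its span lay in a WT-only DR, IP when it lay in a KO-only DR, and AMB when it met both. Of the rest, a gene was PP with a LAD on its span in both genotypes and II otherwise.

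The borders are shown where the LADs on a gene of the cascades differed between the genotypes. Each line holds 40 bases of mm9, 20 on each side of the border, with GATC, the site that Dam methylates and *DpnI* cuts, in capitals. The first 11 lines are borders inside or beside genes with a LAD in 1 genotype where the other has none. The last 3 are borders whose bases recur many times in the genome.
*Mbl1*, lower border of the WT LAD (chr14:41944534-41944573, + strand): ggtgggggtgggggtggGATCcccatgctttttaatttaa
*Mbl1*, higher border of the WT LAD (chr14:41969442-41969481, + strand): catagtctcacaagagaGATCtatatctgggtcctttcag
*F9*, lower border of the WT LAD (chrX:57266095-57266134, + strand): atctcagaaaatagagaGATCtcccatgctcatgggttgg
*F9*, higher border of the WT LAD (chrX:57277606-57277645, + strand): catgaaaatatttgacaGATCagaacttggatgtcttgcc
*F9*, lower border of the KO LAD (chrX:57281947-57281986, + strand): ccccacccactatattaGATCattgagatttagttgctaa
*C9*, lower border of the WT LAD (chr15:6402967-6403006, + strand): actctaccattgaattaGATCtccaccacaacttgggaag
*C9*, higher border of the WT LAD (chr15:6428993-6429032, + strand): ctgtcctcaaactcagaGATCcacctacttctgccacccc
*C9*, lower border of the KO LAD (chr15:6436014-6436053, + strand): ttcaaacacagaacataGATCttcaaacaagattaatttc
*F5*, lower border of the KO LAD (chr1:166123981-166124020, + strand): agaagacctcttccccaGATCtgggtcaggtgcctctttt
*Cfi*, lower border of the KO LAD (chr3:129567667-129567706, + strand): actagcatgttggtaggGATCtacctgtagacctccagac
*F13b*, higher border of the first KO LAD (chr1:141409623-141409662, + strand): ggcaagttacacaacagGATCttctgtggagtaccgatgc
*Vwf*, higher border of the middle KO LAD (chr6:125584007-125584046, + strand): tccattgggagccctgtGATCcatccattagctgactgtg
*F13a1*, lower border of the KO LAD over the start (chr13:37130194-37130233, + strand): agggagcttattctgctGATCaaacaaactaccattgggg
*Pros1*, higher border of the shorter WT LAD (chr16:62877295-62877334, + strand): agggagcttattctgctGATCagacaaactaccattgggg
All 52 of the LAD borders at these genes fell on a GATC. Of 54 different border windows, 49 occurred exactly once in the genome on either strand. The *F13a1* and *Pros1* windows, on chromosomes 13 and 16, differed at 1 of 40 bases and had 404 and 816 exact copies at GATC sites of mm9, and the *Vwf* window had 10828. The higher border of the WT LAD of 32.1 kb in *F8* had 8456, and that of the WT LAD at *Mbl1* had 6. How well reads could be placed at such borders was not tested.

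Most of the genes lay in the nuclear interior in both genotypes. Of 38 genes, 27 (71.1%) were II, against 56.6% of all protein-coding genes, and all 27 were free of LADs in both genotypes. The other 11 (28.9%, against 43.4% of all genes) were not II. They were 2 PI genes (*Mbl1* and *C6*), 5 IP genes (*F5*, *F8*, *F13a1*, *Vwf* and *Cfi*), 3 AMB genes (*F9*, *Pros1* and *C9*) and 1 PP gene (*F13b*). The matching shares of all genes were 5.43% PI, 17.1% IP, 2.96% AMB and 17.9% PP, and the genes that met any DR came to 10 of 38 (26.3%) against 25.5%. The cascades thus met DRs about as often as other genes, and the class that lay furthest below the genome was PP, at 2.63%.

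**Figure D1:**
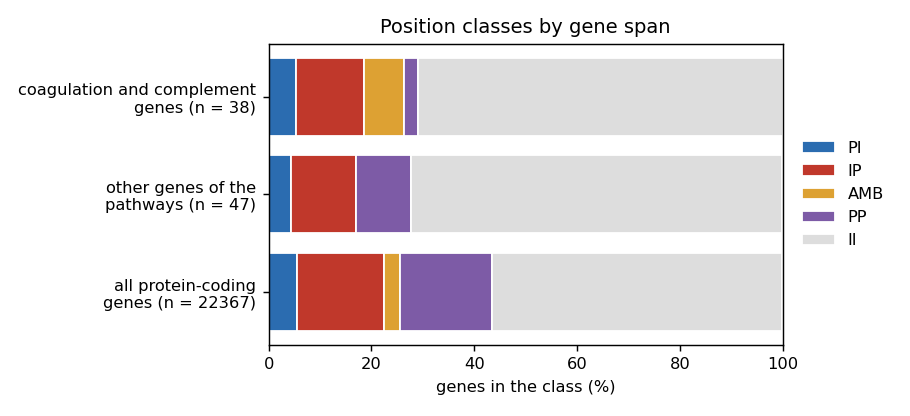
Share of genes (%, x axis) in each position class for the 38 coagulation and complement genes, 47 further genes of the same pathways and all 22367 protein-coding genes. The II segment is 71.1% of the 38 genes and 56.6% of all genes, and the PP segment is 2.63% against 17.9%.

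Few of the transcription starts lay in a LAD. A WT LAD touched the span of 8 genes (21.1%, against 30.4% of all genes) and a KO LAD touched 10 (26.3%, against 41.7%). Only *Mbl1* had its start in a WT LAD (2.63%, against 22.7%), and only *F13a1*, *F13b* and *Pros1* in a KO LAD (7.89%, against 32.8%). The start was free of LADs in both genotypes in 34 genes (89.5%), against 64.6% of all genes. Among the genes that were not II, 7 of 11 (63.6%) had such a start, against 19.4% of 9713 genes of the genome. These sets differed in class, since 4011 of the 9713 genes were PP against 1 of the 11. They may also differ in length. The 11 genes had a median of 68.4 kb, and 30.6% of all genes under 10 kb were PP. The part of class and length in this contrast was not tested. In 7 of these 11 genes it was the body or the 3′ end and not the start that met a LAD.

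Gene length went with the class. The 27 II genes had a median length of 12.9 kb, the 11 others 68.4 kb and the 5 IP genes 140 kb, against 15.4 kb for all genes. Of 12 genes under 10 kb, only *Mbl1* met a DR, whereas 4 of 7 genes of 50 to 100 kb and 3 of 3 longer ones did. Among all genes the share rose likewise, from 12.9% under 10 kb to 41.5% at 50 to 100 kb and 67.8% above that. The part of length in the calls was not tested beyond these bins.

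The genes that were not II are taken first, by role. The share to set beside each count by role is the 43.4% of all protein-coding genes that were not II.

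**Figure D2:**
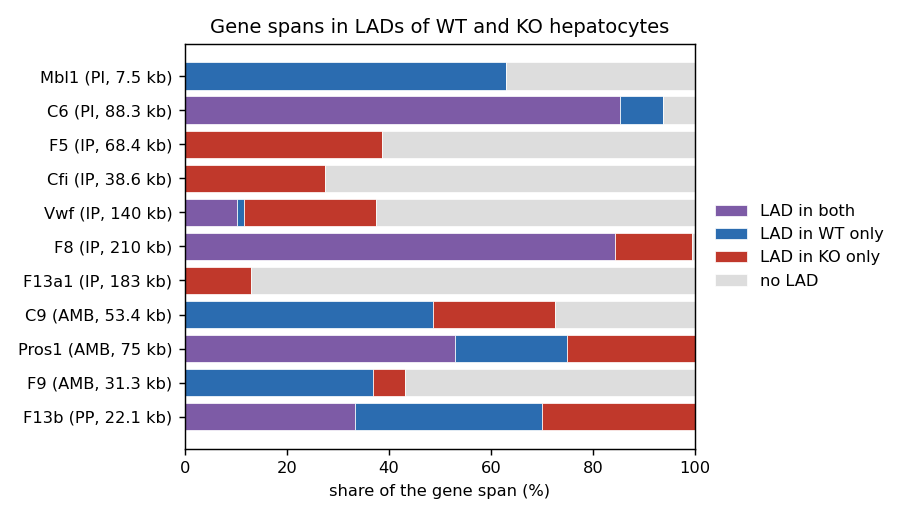
Share of the gene span (%, x axis) in a LAD of both genotypes, of WT only, of KO only or of neither, for the 11 genes that were not II, with class and length. *C9*, *F9*, *Mbl1*, *F5*, *Cfi* and *F13a1* share no base between WT and KO LADs, whereas *C6* and *F8* are shared over 85.4% and 84.3% of their spans.

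The common path ends clotting, and 3 of its 8 genes met a LAD. *F5* encodes factor V, the cofactor with which factor Xa turns prothrombin into thrombin. It spans 68.4 kb of chromosome 1 (166081969 to 166150408, + strand), and 0% of it lay in a WT LAD against 38.6% in a KO LAD. That KO LAD, 44.9 kb long, begins in exon 13, the border printed above, and covered exons 13 to 25 of 25, none of which was in a LAD in WT. Upstream of the start the change ran the other way. A WT LAD ended 17.9 kb before *F5* and the KO LAD 38.0 kb before it. The 20.0 kb between them, a WT-only DR, overlaps *Selp*, the gene for P-selectin. The 3′ part of *F5* was thus in a LAD only in KO and these 20.0 kb upstream only in WT, while the transcription start was in neither.

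Factor XIII cross-links fibrin and is built of an A chain with the enzyme activity (*F13a1*) and a B chain that carries it (*F13b*). *F13a1* spans 183 kb of chromosome 13 (36959047 to 37142113, - strand), with no WT LAD and 13% of its span in KO LADs. In KO a LAD of 22.9 kb lay over its start, from 11 kb upstream to 11.9 kb downstream, and a second of 11.8 kb lay 70.7 kb into the gene. The 2 LADs covered exons 1, 2, 5 and 6 of 15. In WT the nearest LAD was 70.1 kb from the span and 253 kb from the start, so the distance from the start was 253 kb in WT and 0 kb in KO. The surrounding Mb held few LADs, 1.20% in WT and 12.6% in KO.

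*F13b*, on chromosome 1 (141398284 to 141420333, + strand), was in LADs in both genotypes, at 70.0% of its 22.1 kb in WT and 63.4% in KO, but not over the same bases. Only 33.4% of the span was shared, 36.6% was in a WT LAD alone and 30.0% in a KO LAD alone. The WT LAD of 345 kb began 6.62 kb into the gene, whereas in KO a LAD of 56.9 kb covered the start up to 11.4 kb and the next began at 19.4 kb. Exons 1 to 5 of 12 were in a LAD in KO only and exons 9 and 10 in WT only. None of these pieces reached 10 kb, so the gene was PP although its start was inside a LAD in KO and 3.10 kb outside in WT.

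The other 5 genes of the common path were II. They are *F2* (prothrombin), *F10* (factor X) and the 3 fibrinogen chains *Fga*, *Fgb* and *Fgg*.

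In the intrinsic path, 3 of 7 genes met a LAD. *F8* encodes factor VIII, the cofactor of factor IX, and *Vwf* the protein that carries it in plasma and ties platelets to damaged vessels. *F8* is the longest of the 38 genes, 210 kb on chromosome X (72418054 to 72627954, - strand), and was largely in LADs in both genotypes, at 84.3% in WT and 99.4% in KO. In WT it lay in 3 LADs of 101, 52.7 and 32.1 kb. In KO a single LAD of 246 kb ran through the 2 gaps between them and over the 5′ side, and exon 1 and exons 15 to 21 of 26 were in a LAD in KO only. The start was 12.5 kb from a LAD in WT and 1.29 kb in KO. KO-only DRs made up 11.1% of the span.

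*Vwf* spans 140 kb of chromosome 6 (125496792 to 125636697, + strand), and its share in LADs was 11.6% in WT and 36.1% in KO. Both genotypes had a LAD over exons 44 to 52 of 52 at the 3′ end. KO had 2 further LADs inside the gene, of 12.3 kb from 30.3 kb past the start and of 24 kb from 63.3 kb, which met exon 7 and exons 17 to 22. From the start of the span to the nearest LAD there were 124 kb in WT and 30.3 kb in KO. Exon 1 of the transcript used begins further in, at 125502966.

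*F9* encodes factor IX, the protease whose loss gives hemophilia B, and is made by hepatocytes. It spans 31.3 kb of chromosome X (57252641 to 57283936, + strand) and was AMB. A WT LAD of 11.5 kb, from 13.5 to 25 kb past the start, covered 36.8% of the span with exons 5 and 6 of 8 and was absent in KO. A KO LAD of 26.9 kb began 29.3 kb past the start, in front of the last exon, and covered 6.29% of the span. No base of *F9* was in a LAD in both genotypes. The share of the span in LADs fell from 36.8% to 6.29%, yet the start came nearer to a LAD, from 12.6 to 5.42 kb. With LADs of at least 20 kb the WT LAD drops out and *F9* was IP.

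*Pros1* encodes protein S, the cofactor with which activated protein C switches clotting off. It spans 75.0 kb of chromosome 16 (62854133 to 62929172, + strand) and was AMB with nearly equal totals, 75.0% in WT and 77.9% in KO. The LADs were split differently. WT had a LAD of 18.1 kb from 5.13 kb past the start and then a LAD of 1853 kb from 36.8 kb on. In KO a LAD of 69.7 kb ran from 20.5 kb upstream of the start to 49.3 kb past it, and the next began at 65.8 kb. Exons 1 to 3 of 15 were in a LAD in KO only, exons 8 to 12 in WT only and the other 7 in both, so the start was in a LAD in KO only, and KO had a gap of 16.6 kb in the 3′ part that WT lacked.

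Of the genes of complement, 4 of 18 met a LAD, where 43.4% of all genes were not II. The lectin path begins with mannose-binding lectins, which mice have in 2 forms. *Mbl1*, for mannose-binding lectin A, is the only gene of the 38 whose start was in a LAD in WT and not in KO. It spans 7.50 kb of chromosome 14 (41964745 to 41972248, + strand), with 62.9% in a WT LAD and 0% in KO. The WT LAD of 24.9 kb (41944554 to 41969461), which also overlaps the surfactant protein gene *Sftpa1*, reached from 20.2 kb upstream to 4.72 kb past the start. It covered exons 1 to 3 of 5 and was lost whole in KO. A LAD of 419 kb in KO and 418 kb in WT lay on the other side of *Mbl1* in both genotypes, 18.2 kb past the gene in KO. The surrounding Mb kept nearly the same coverage, 70.7% in WT and 68.0% in KO.

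The promoters of the 2 hepatocyte genes whose start was in a LAD of a single genotype and whose 250 bases before the start hold a GATC are printed here from mm9, 5′ to 3′ on the gene's strand, with the GATC in capitals. Each holds 1 site, a place where Dam could mark the promoter itself. *F13a1* and *Pros1* had none in that window, and 40.2% of the windows of all protein-coding genes held at least 1.
*Mbl1* promoter (chr14:41964495-41964744, + strand): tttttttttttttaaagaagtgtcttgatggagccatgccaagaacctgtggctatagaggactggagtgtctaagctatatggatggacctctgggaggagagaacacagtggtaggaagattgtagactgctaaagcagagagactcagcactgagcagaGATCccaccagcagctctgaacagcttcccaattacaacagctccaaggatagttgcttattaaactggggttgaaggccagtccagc
*F13b* promoter (chr1:141398034-141398283, + strand): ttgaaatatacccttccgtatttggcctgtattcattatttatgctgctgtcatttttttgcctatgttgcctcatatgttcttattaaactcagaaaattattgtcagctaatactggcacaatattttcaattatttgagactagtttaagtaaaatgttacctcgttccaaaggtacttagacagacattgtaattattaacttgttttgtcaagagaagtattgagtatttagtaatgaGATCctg

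Factor I, the protease encoded by *Cfi*, takes part in holding the convertases in check. *Cfi* spans 38.6 kb of chromosome 3 (129539655 to 129578246, + strand), 0% in WT LADs and 27.4% in a KO LAD of 30.2 kb that began 28.0 kb past the start. That LAD covered exons 9 to 14 of 14, which hold the 3′ part of the gene, and ran on into *Pla2g12a*, a phospholipase gene. In WT there were instead 2 LADs of 16.4 and 21.9 kb on the 5′ side, the nearer ending 27.8 kb before the start, and both were absent in KO. As at *F5*, a LAD over the 3′ exons was called in KO only. The start of *Cfi* was outside the LADs of both genotypes at nearly the same distance, 27.8 and 28.0 kb.

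*C6* and *C9* encode subunits of the membrane attack complex, the pore of complement, and both lie on chromosome 15. *C6* (4677175 to 4765456, + strand) spans 88.3 kb, of which a WT LAD covered 93.7% and a KO LAD 85.4%. Its call as PI rests on 9 bases at its 3′ end, which is 0.0102% of the span, since the KO LAD ended 9 bases before the gene did and a WT-only DR of 11 kb followed. At the 5′ side the KO LAD began later, at 12.9 against 5.53 kb past the start, and exons 3 to 5 of 17 were in a LAD in WT only. This stretch was below the 10 kb that a DR needs. Exons 6 to 17 were in a LAD in both.

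*C9* spans 53.4 kb (6395327 to 6448744, + strand) and was AMB, with LADs on 48.7% of it in WT and 23.8% in KO and no base in both. The WT LAD of 26.0 kb covered exons 2 to 5 of 11 and was absent in KO, whereas a KO LAD of 53.1 kb began 40.7 kb past the start and covered exons 7 to 11. The start lay outside, 7.66 kb from a LAD in WT and 14.3 kb in KO. On the spans of both *C9* and *F9*, the WT LAD came first after the start and the KO LAD lay behind it.

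**Figure D3:**
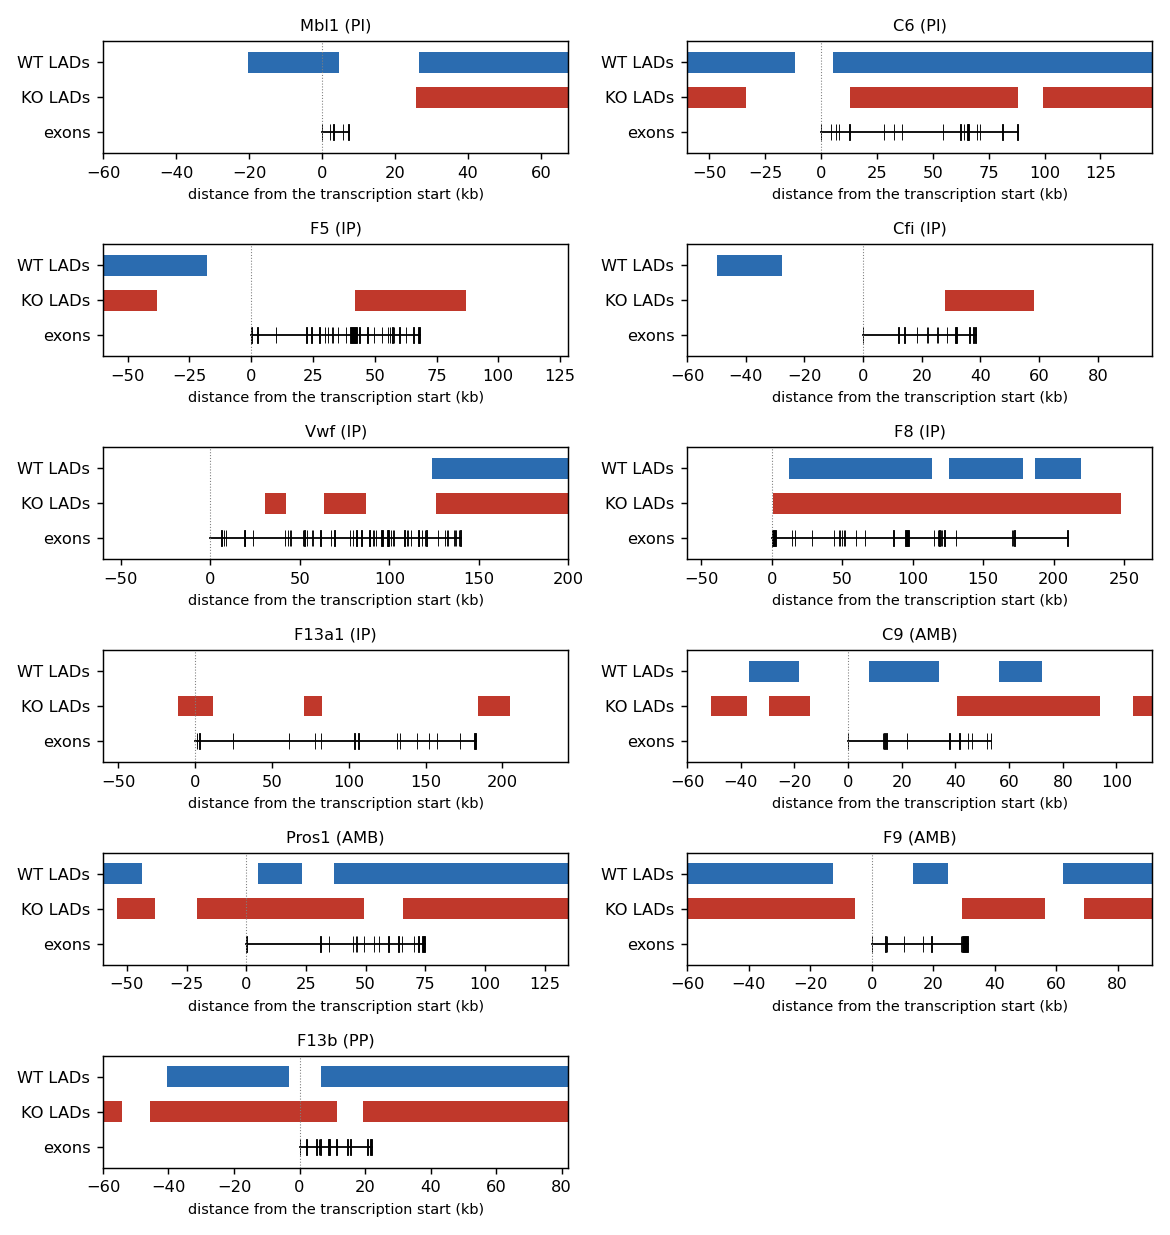
LADs of WT (blue) and KO (red) around the 11 genes that were not II, with the exons of the main transcript in black, against the distance from the transcription start in kb, 5′ to 3′. The WT LAD over the start of *Mbl1* is absent in KO, the KO LADs of *F5* and *Cfi* cover their 3′ exons, and the 3 WT LADs of *F8* are 1 LAD in KO.

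The 27 II genes differed in how far along the chromosome the nearest LAD lay. Their median distance from the span to the nearest LAD was 333 kb in WT (18.1 to 5186 kb) and 170 kb in KO (8.13 to 672 kb). Of all 12654 II genes, the 12518 without a LAD in either genotype had medians of 401 and 119 kb. A LAD was nearer in KO for 22 of 27 genes (81.5%) and nearer in WT for 5. For all genes without a LAD these shares were 83.6% and 16%, and over all 38 genes the span was nearer to a LAD in KO for 25 and in WT for 6, against 60.4% and 11.3% of all genes. KO has more LADs by number, but the paper reports them as shorter on average, with a similar share of the genome covered in both genotypes. The study also sequenced KO less deeply than WT, and the part of depth in these distances was not tested. The genes of the cascades followed the genome in direction but less in size. The median ratio of WT to KO distance was 1.58 for the 27 genes and 2.59 for all genes without a LAD. Neighbors share their LADs, and the 27 genes lay in 16 LAD-free stretches in WT and 17 in KO, with median lengths of 1567 and 907 kb. This depends on short LADs. The median over all 38 genes was 101 kb in WT and 41.6 kb in KO as deposited, and 145 kb in WT and 173 kb in KO with LADs of at least 20 kb.

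**Figure D4:**
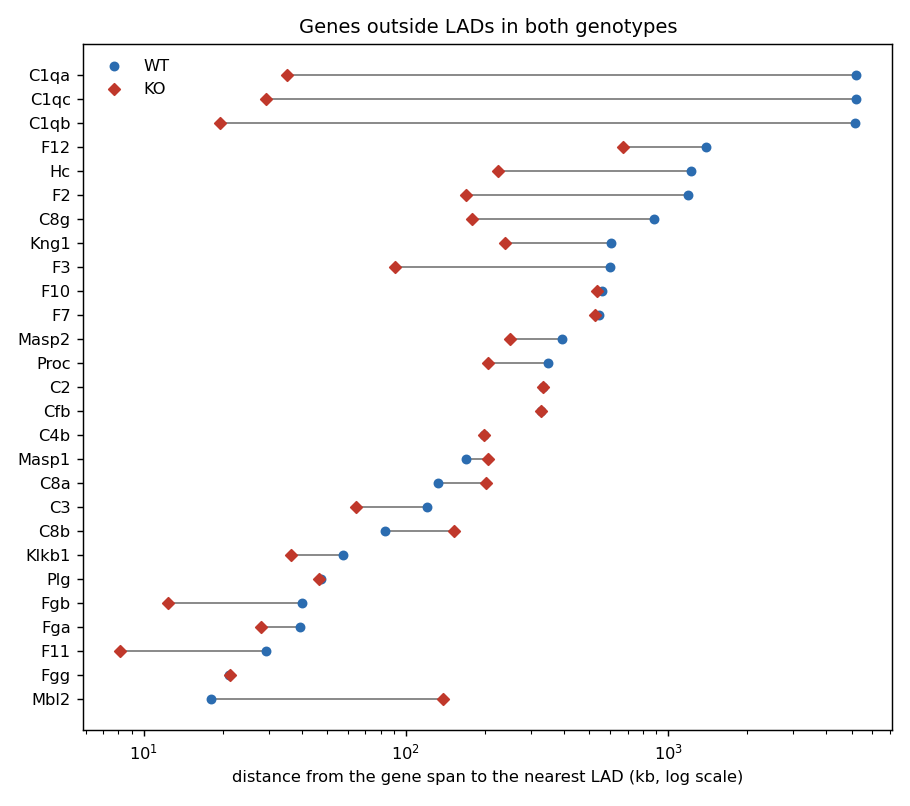
Distance from the gene span to the nearest LAD (kb, log scale) for the 27 II genes in WT (blue circles) and KO (red diamonds), joined by a line per gene and sorted by the WT distance. *C1qa*, *C1qb* and *C1qc* lie between 5170 and 5186 kb in WT and between 19.5 and 35.3 kb in KO, and *Mbl2* is the gene that lost most nearness, from 18.1 to 139 kb.

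Among the starters of clotting, *F3*, the gene for tissue factor, was 600 kb from a LAD in WT and 91.0 kb in KO. *F7*, whose product binds tissue factor, and *F10*, the protease the 2 activate, are neighbors within 30.6 kb of chromosome 8 and lay far inside in both genotypes, *F7* at 546 and 526 kb and *F10* at 558 and 537 kb. With *F12*, for which the WT and KO distances were 1389 and 672 kb, they were the 3 genes farthest from a KO LAD. *F12* encodes factor XII, which starts the contact path, and its partner kininogen (*Kng1*) was 607 kb from a LAD in WT and 239 kb in KO. Prothrombin (*F2*) went from 1195 to 170 kb, where the nearest KO LAD was only 12.3 kb long. With LADs of at least 20 kb the WT and KO distances of *F2* were 1195 and 1123 kb.

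*F11* (factor XI) and *Klkb1* (plasma prekallikrein), 2 related serine proteases side by side on chromosome 8, lay at the edge of a LAD-free stretch. *F11* was 29.3 kb from a LAD in WT and 8.13 kb in KO, the smallest distance of the 27 genes, and *Klkb1* 57.6 and 36.4 kb. The stretch without LADs around them was 1158 kb in WT and 129 kb in KO. The nearest KO LAD was 12.7 kb long, and with LADs of at least 20 kb alone *F11* was 29.3 kb from a LAD in WT and 126 kb in KO, which turns the order.

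The fibrinogen genes lay between long LADs. *Fgg*, *Fga* and *Fgb* lie within 41.9 kb of chromosome 3 (82811781 to 82853725) and, with *Plrg1*, are the only coding genes of a stretch of 103 kb without LADs in WT, which was 75.8 kb in KO. The WT LADs on its 2 sides were 956 and 672 kb long, and in the Mb around *Fga* LADs covered 89.7% in WT and 91.7% in KO, the highest KO coverage of the 38 genes. *Fgg*, nearest to the lower side, was 21.2 kb from a LAD in WT and 21.4 kb in KO. *Fgb*, nearest to the higher side, was 40.0 and 12.4 kb away, and *Fga* between them 39.4 and 28.1 kb. The 3 chains of fibrinogen, an abundant secreted product of the hepatocyte, thus shared 1 interior pocket between long LADs in both genotypes, and the side next to *Fgb* was narrower in KO.

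The C1q genes lay in the opposite setting. *C1qa*, *C1qb* and *C1qc* encode the 3 chains of C1q and fill 18.7 kb of chromosome 4 (136436044 to 136454718). In WT they were in a stretch of 10544 kb without LADs, with 209 other coding genes, and the nearest LAD was 5170 to 5186 kb away. In KO 15 LADs fell in that stretch, 279 kb in all, and 1 of 12.8 kb lay 19.5 kb from *C1qb*, 29.2 kb from *C1qc* and 35.3 kb from *C1qa*. The nearness therefore rests on 1 short LAD. With LADs of at least 20 kb alone, *C1qb* was 5367 kb from a LAD in WT and 2194 kb in KO.

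**Figure D5:**
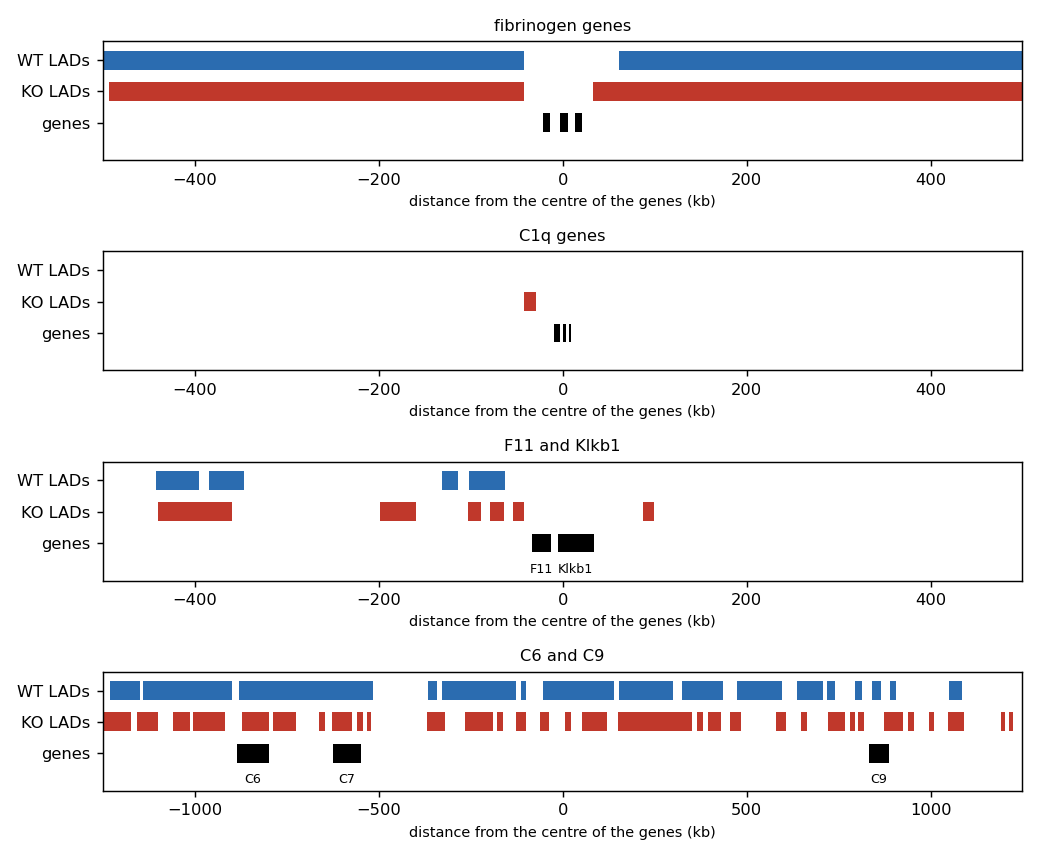
WT LADs (blue), KO LADs (red) and genes (black) at 4 loci, against the distance in kb from the center of the named genes. The fibrinogen genes sit in a LAD-free pocket of 103 kb in WT and 75.8 kb in KO, and the C1q genes have a single short KO LAD in view. The LADs in the window around *C6*, *C7* and *C9* are more broken in KO, while *C6* and *C9* themselves each meet 1 LAD per genotype.

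In the lectin path *Mbl2*, for mannose-binding lectin C, went with *Mbl1* in direction, on another chromosome (19). Its nearest LAD was 18.1 kb away in WT, the smallest WT distance of the 27 genes, and 139 kb in KO. The Mb around it was 41.5% in LADs in WT and 24.1% in KO. *Masp1*, a protease that acts with both lectins, was 169 kb from a LAD in WT and 205 kb in KO. *Masp2*, the protease that cuts C4 and C2, went from 392 to 250 kb. Of the 4 lectin path genes, then, 3 were farther from a LAD in KO and *Masp2* was nearer. For all protein-coding genes, the span was nearer to a LAD in WT for 11.3% and in KO for 60.4%. The paper reports a marked loss of NE association along the whole chromosome that carries *Mbl2*. The part of that loss in the distance of *Mbl2* was not tested.

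The convertases are built from the products of *C2*, *C4b*, *Cfb* and *C3*. *C2*, *Cfb* and *C4b* lie in the major histocompatibility complex on chromosome 17, in a stretch of 1757 kb without LADs in WT and 1536 kb in KO. Their distances hardly differed, 333 kb for *C2*, 327 kb for *Cfb* and 199 kb for *C4b* in both genotypes. These distances rest on short LADs, of 14.0 kb for WT and 16.1 kb for KO. With LADs of at least 20 kb, the WT and KO distances of *C2* were 1420 and 1423 kb. Those of *Cfb* were then 1427 and 1421 kb, and those of *C4b* 1299 and 1293 kb. *C3*, the protein on which all paths meet, was 120 kb from a LAD of 1660 kb in WT and 64.6 kb from a LAD of 24 kb in KO.

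In the terminal complex, *Hc*, the mouse gene for C5, lay 1222 kb from a WT LAD and 225 kb from a KO LAD, and *C8g*, for the gamma chain of C8, at 882 and 178 kb. Both lie on chromosome 2 in the same WT stretch without LADs, of 11667 kb, into which 21 KO LADs fell. The KO LAD nearest to *Hc* was 11.7 kb long, and with LADs of at least 20 kb *Hc* was at 1222 kb in both genotypes. *C8a* and *C8b*, for the other C8 chains, are neighbors on chromosome 4 and were farther in KO, at 132 and 202 kb for *C8a* and at 83.0 and 153 kb for *C8b*. Subunits of the same complex thus differed in position and in the direction of the difference.

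The last genes belong to the limits on clotting. Plasminogen (*Plg*), whose active form dissolves fibrin, was 47.4 kb from a LAD in WT and 46.8 kb in KO. Protein C (*Proc*), the partner of protein S, was at 349 and 206 kb, and at 432 and 424 kb with LADs of at least 20 kb.

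The setting of the genes that were not II and of the II genes differed by the Mb around them. That Mb holds the span and LADs on it, by which the genes were sorted, so part of the difference follows from the sorting. LADs covered a median of 56.7% of the Mb in WT and 56.5% in KO around the 11 genes that were not II, against 1.40% and 5.51% around the 27 II genes. The medians of coding genes in that Mb were 9 and 12. By source, 3 of 7 genes made mainly outside hepatocytes (*F8*, *F13a1* and *Vwf*) were IP and the other 4 II, and the 31 genes of hepatocytes were 2 PI, 2 IP, 3 AMB, 1 PP and 23 II. Among all protein-coding genes 17.1% were IP and 56.6% II. The 3 IP genes of the first set were the 3 longest of the 38.

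The further genes of the pathways were 47, with 34 II (72.3%), 2 PI (4.26%), 6 IP (12.8%), 5 PP (10.6%) and no AMB gene. The shares of II, PI and IP were near those of the 38, whereas PP was higher, and 17% of the 47 met a DR against 26.3% of the 38. The IP genes included the inhibitors *Tfpi* (58.8% of the span in KO LADs, 0% in WT) and *Thbd*, for thrombomodulin (100% and 0%), the anaphylatoxin receptors *C5ar1* (100% and 0%) and *C3ar1* (59.7% and 0%) and also *C1s*, a protease of C1 (32.1% and 0%). The KO LAD on *C1s* met none of the 12 exons of its main transcript. The PI genes were *C7*, between *C6* and *C9* on chromosome 15, from 100% in WT to 80.5% in KO, and *Cr1l*, a regulator of C3 cleavage, from 20.7% to 0%. *C6*, *C7* and *C9* each met a WT-only DR, but *C6* by only 9 bases, and *C9* also met a KO-only DR. Among all genes, 5.43% were PI and 2.96% AMB. LADs covered 67.6% of 2500 kb around *C6*, *C7* and *C9* in WT and 53.2% in KO.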

How the data were processed

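LaminB1-DamID was analysed in hepatocytes isolated from WT and KO mice, with 1 pooled library of each construct per genotype. The deposited files hold interval positions (chromosome, start and end, with no signal): 2 lists of LADs and 2 of DRs. Per the submitters' processing notes BWA, limma and mm9 were used, and the methods of the study state that LADs were segmented with DNAcopy at default parameters. Depth per sample is not in the lists, so the precision of a border is unknown here, although the study sequenced the KO libraries less deeply.

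The DRs were checked to be 1 LAD list minus the other with pieces under 10 kb left out. Starts were made 1-based. Spans and exons (of the coding transcript with the most exonic bases) came from the GENCODE vM1 annotation of NCBIM37, the same assembly as mm9, and 0 of 24183 LADs ran past a chromosome end. Overlaps, classes and distances were computed with Python 3.11.15 and numpy 2.4.6, and figures with matplotlib 3.10.9. Subtraction, joining, overlap and distance were each tested on simulated data. Samples were grouped by genotype and construct from the labels. No test was made, since no group has a replicate.

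The 38 genes, the 47 further genes and the settings were chosen with earlier results of these data known. By the rule for named genes, each of the 38 is accounted for, those not II in full, and of the II genes the 3 nearest to and farthest from a LAD and those whose distance differed by over 100 kb between genotypes are named, with neighbors within 100 kb described together. The 11 alternatives for the classes were other overlaps (10% or 50% of the span, the start alone, exons alone, 5 kb flanks, a 100 kb window), DRs of any length or of at least 20 kb, LADs of at least 20 kb, and LADs joined across gaps of up to 20 or 50 kb. Autosomes alone and distances from the start were also tried. The DamID profiles are not analysed here, and some genes of the further list are not reported here.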

Additional observations from a re-analysis of the deposited data

How the results depend on the processing

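Of the 27 II genes, all stayed II under the 11 alternatives except the 100 kb window around the gene, which left 19. *Mbl1* was PI under all 11. A value counts here as moved when it differs by over a factor of 1.5. PP genes (1 as reported) were 2 with at least 10% of the span, 7 with at least 50%, 0 by the start alone, 2 in the 100 kb window, 0 with LAD differences of any length, 3 with DRs of at least 20 kb and 4 with LADs joined across gaps of up to 50 kb. PI genes (2) were 1 with at least 50% of the span and 1 by the start alone. IP genes (5) were 0 with at least 50%, 2 by the start alone and 10 in the 100 kb window. AMB genes (3) were 0 with at least 50%, by the start alone, with DRs of at least 20 kb and with LADs joined to 50 kb, and 5 with differences of any length. With at least 10% of the span *C6* was PP and *F9* PI, but *F9* was IP with DRs or with LADs of at least 20 kb. *Pros1* was IP by the start alone, with DRs of at least 20 kb and with LADs joined to 20 kb, and *C9* was PI with DRs of at least 20 kb and with LADs joined to 50 kb. Among the IP genes, KO-only DRs held a median of 25.9% of the span as reported, 12% with DRs of at least 20 kb and 14.1% with LADs of at least 20 kb, and could not be given at 50% of the span, where no gene was IP. The median distance of all 38 genes was 101 kb to a WT LAD and 41.6 kb to a KO LAD, and 145 and 173 kb with LADs of at least 20 kb, which turns the order. The summed spans were 25.9% in WT LADs, and 15.9% on the autosomes alone. The KO minus WT distance turned from nearer in KO to nearer in WT with LADs of at least 20 kb for *F11* (96.9 kb), *Klkb1* (96.9 kb), *C2* (3.18 kb) and *Hc* (0.598 kb), and when taken from the start for *F5* (20.0 kb) and *Cfi* (0.232 kb). Why settings differ beyond their own construction was not tested. No paired analysis was possible because each genotype has 1 pooled library of each construct.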

Other observations

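Of the further receptors and regulators of complement on chromosome 1, *Cr2*, *Cd55* and *Cd46* lay in LADs in both genotypes, whereas *C4bp*, for a chain of the protein that holds back the classical path, had no LAD in either and was 3.2 kb from a LAD in WT and 12.9 kb in KO. *Cr2*, the receptor of B cells for cleaved C3, was covered over 78.1% of its span in WT and 100% in KO, *Cd55*, which breaks up convertases, over 76.7% and 100%, and *Cd46*, a cofactor of factor I, over 34.6% and 41.6%. Their neighbor *Cr1l*, between *Cd46* and *Cr2*, went from 20.7% to 0%. *Colec10*, for a liver collectin, and *A2m*, for a broad protease inhibitor of plasma, were covered over 100% in both genotypes.

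The nearest LAD in KO was short at several of the II genes. The nearest KO LAD was 12.3 kb long at *F2*, 12.9 kb at *F3*, 12.7 kb at *Proc*, 10.1 kb at *Masp2*, 13.9 kb at *Mbl2* and 10.2 kb at *C8a*, where the shortest LAD of either list is 10002 bp. Short LADs were not limited to KO. At the same genes the nearest WT LAD was 61.6 kb at *F2*, 13.6 kb at *F3*, 17.1 kb at *Proc*, 12.7 kb at *Masp2*, 39.8 kb at *Mbl2* and 11.6 kb at *C8a*. The depth behind each of these calls is unknown here, although the study sequenced the KO libraries less deeply. Whether these LADs would be called again in another pool was not tested.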
